A study of Mus musculus with 2 samples.

Results

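Asymmetric dimethylarginine is released when proteins that carry methylated arginines are broken down, and it inhibits the nitric oxide synthases. The enzyme encoded by Ddah1 hydrolyses it to citrulline. The nitric oxide synthases turn arginine into nitric oxide and citrulline, argininosuccinate synthase and argininosuccinate lyase (Ass1 and Asl) rebuild arginine from citrulline, and the arginases Arg1 and Arg2 draw on the same arginine to make ornithine and urea. In the gut wall, nitric oxide from neurons relaxes smooth muscle, nitric oxide from endothelium widens vessels, and the inducible synthase is known from inflamed epithelium and activated macrophages.

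The genes described here are 9 of the 40879 gene symbols in the deposited counts, matched by symbol: Ddah1, Ddah2, Nos1, Nos2, Nos3, Ass1, Asl, Arg1 and Arg2. The set was chosen by measured values, since Ddah1 had one of the 10 highest differences between the libraries. For this reason its difference is given as a description, and no test was made for any of the genes. RNA was extracted from the intestine of mice on a C57BL/6 background, and equal amounts from 3 animals were pooled into 1 library per genotype. The methods give 8 weeks as the age at which mice entered the study, and the age at RNA extraction is not stated. The mutant allele of the ERAP1+/- animals came from ERAP1 tm1a (EUCOMM)Wtsi embryonic stem cells of a single clone, crossed with a strain expressing Cre recombinase to delete exons 6 and 7. The promoter that drives Cre is not given in the sources used here, the study's text places both libraries at steady state, without treatment, and the methods call the mice germ-free and also housed in a specific pathogen-free facility. Reads come from the 3' ends of polyadenylated transcripts, so that a transcript gives about as many reads whether it is long or short, and levels of different genes are compared on that basis as CPM, counts scaled to a common library size.

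The libraries held 8114826 counted reads (WT) and 8907515 (labelled ERAP1+/-). The targeted gene, Erap1, had 229 and 2 reads, and its level was 0.730% of WT (95% interval 0.0878% to 2.67%). Reads from the 3' end lie outside the deleted exons and so do not check the deletion itself, but so low a level goes against a heterozygous label, and this library is named by its label below, where each direction rests on that label. The labelled tissue was checked against marker genes. All 12 epithelial markers had reads in both libraries, surface colonocyte markers summed to 6088 and 3875 CPM, and markers of the small intestine to 7.98 and 5.16 CPM. Markers of other tissues had many reads in the WT library: 12 markers of suprabasal epidermis summed to 3422 CPM against 23.3 CPM, and 14 markers of skeletal muscle to 1186 CPM against 22.3 CPM. Among the 8013 genes that reached 4 on the log2(CPM + 1) scale in either library, 111 were more than 2-fold higher and 317 more than 2-fold lower in the library labelled ERAP1+/-, and with scaling by the total count in place of the trimmed mean of M values (TMM) these were 166 and 248. That scaling moves the median of all these genes by 0.122 on the log2 scale. With 1 library per genotype no difference has a replicate check and no p-value is given. Intervals are exact 95% intervals for reads and cover counting error only.

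Of the 9 genes, 4 reached the log2 level of 4 (Ddah1, Ddah2, Nos1 and Arg1). Ddah1 was more than 2-fold higher in the library labelled ERAP1+/-, and Arg1 was more than 2-fold lower. Over all genes at that level, 1.39% were higher and 3.96% were lower by the same rule. The other 5 genes stayed under the level in both libraries and could not be counted by it. Over the 8 genes with at least 10 reads in the libraries together, the median difference in log2(CPM + 1) was 0.31, with 5 above 0 and 3 below, beside a median of 0.00 over the 16142 genes with as many reads. Without Ddah1 the median of the others was 0.01. The genes thus did not share a direction.

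**Figure D1:**
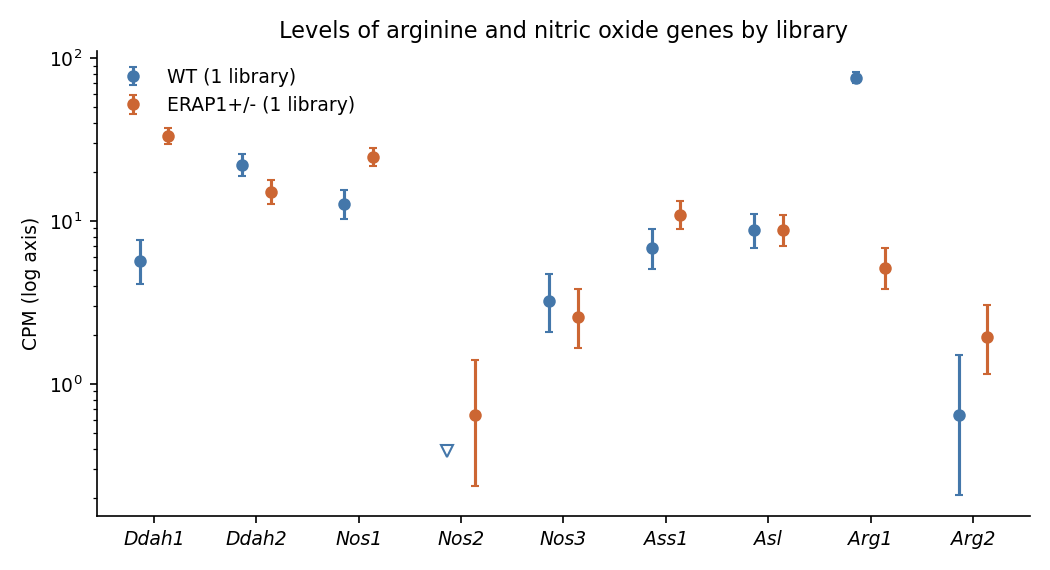
Level of each gene in CPM on a log axis, in WT (blue) and in the library labelled ERAP1+/- (orange). Bars are exact 95% counting intervals, and the open triangle marks the 0.386 CPM that a count of 0 allows for Nos2 in WT. Ddah1 stood at 5.66 and 33.2 CPM and Arg1 at 76.1 and 5.16 CPM, while the bars of Asl, Nos3 and Arg2 overlap.

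The order of the genes by level changed between the libraries. In WT, Arg1 led with 76.1 CPM, followed by Ddah2, Nos1, Asl, Ass1, Ddah1, Nos3, Arg2 and Nos2. Arg1 took 55.9% of the reads of the 9 genes there (exact 95% interval 52.9% to 58.9%, of 1057 reads) and Ddah1 4.16% (3.04% to 5.55%). Within the other library, Ddah1 led with 33.2 CPM and 32.2% of the reads (29.2% to 35.3%, of 960 reads), followed by Nos1, Ddah2, Ass1, Asl, Arg1, Nos3, Arg2 and Nos2. Arg1 stood sixth there with 48 of the 960 reads (3.71% to 6.58%). Neighbours in the order that did not differ beyond counting error were Asl and Ass1, Ass1 and Ddah1, and Arg2 and Nos2 in WT, and Ass1 and Asl, and Nos3 and Arg2, in the library labelled ERAP1+/-.

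Ddah1 lies on the plus strand of chromosome 3 of GRCm38, from 145758675 to 145894277 in GENCODE M21, and its transcript Ddah1-201 has 6 exons, the last of which holds 2836 bp. It had 44 reads in WT and 309 in the library labelled ERAP1+/-, or 5.66 and 33.2 CPM. The counting intervals of these levels do not overlap (4.11 to 7.60 and 29.6 to 37.1 CPM). Since Ddah1 was chosen for its difference, which the intervals do not take into account, this is a description only. The ratio of the levels was 5.87 (95% interval 4.27 to 8.24), and on the log2(CPM + 1) scale the difference was 2.36. This was the eighth highest difference of the 8013 genes. At the edge of the 10 highest, Insl5 was just inside with a difference of 2.30 and Clca3b just outside with 2.24. In bulk tissue, more cells of a type that uses a gene and more RNA per cell cannot be told apart.

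Its paralog Ddah2, whose part in the breakdown of asymmetric dimethylarginine is less clear, lies on chromosome 17 (35059035 to 35062095) and had 172 reads in WT and 141 in the library labelled ERAP1+/-. Its level was lower, at 22.1 and 15.2 CPM, a ratio of 0.685 (95% interval 0.544 to 0.861) and a log2 difference of -0.52, within 2-fold. The ratio of Ddah1 to Ddah2 reads within a library does not depend on scaling. It was 0.256 in WT and 2.19 in the library labelled ERAP1+/-, which differ 8.57-fold (95% interval 5.73 to 12.9). Ddah1 therefore made up 20.4% of the reads of the pair in WT (15.2% to 26.4%) and 68.7% in the other library (64.2% to 72.9%).

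Because the paralogs differed in opposite directions, the reference sequence before their start sites is shown. RefSeq promoters on GRCm38.p6 were matched for 4 of the 9 genes. The windows are chr3:145758442-145758674 for Ddah1 and chr17:35058785-35059034 for Ddah2, both on the plus strand and ending at the base before the first exon. Capitals mark the GC box GGGCGG or its reverse complement CCGCCC, the motif known to be bound by Sp1.
Ddah1: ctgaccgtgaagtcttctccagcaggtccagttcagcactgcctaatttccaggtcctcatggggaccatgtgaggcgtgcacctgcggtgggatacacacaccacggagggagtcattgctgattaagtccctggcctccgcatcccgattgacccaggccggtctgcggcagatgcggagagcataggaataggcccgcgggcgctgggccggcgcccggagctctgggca
Ddah2: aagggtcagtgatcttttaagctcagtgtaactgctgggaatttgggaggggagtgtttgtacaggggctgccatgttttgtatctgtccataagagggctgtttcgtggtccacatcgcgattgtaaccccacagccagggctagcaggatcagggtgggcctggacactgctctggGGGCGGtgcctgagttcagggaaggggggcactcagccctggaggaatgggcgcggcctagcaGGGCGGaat
The Ddah1 window holds no GC box and the Ddah2 window holds 2. Over all 32851 RefSeq promoters, 32.7% hold this motif in the 250 bases before the start. Neither promoter holds the TATA box TATAAA (12.4% of all) or the CAAT box CCAAT (33.8% of all) on either strand in those bases. The 233 bases printed for Ddah1 hold 15 CpG dinucleotides and 63.1% G and C, and the 250 bases printed for Ddah2 hold 7 and 58.0%. RefSeq places the start of Ddah1 at 145758692, after the GENCODE start, and the 250 bases before the RefSeq start hold 17 CpG dinucleotides and 64.0% G and C. Over the 250 bases before the start of all promoters, the medians are 6 and 52.4%. These counts describe the reference sequence, and the libraries hold no measurement of promoter activity.

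**Figure D2:**
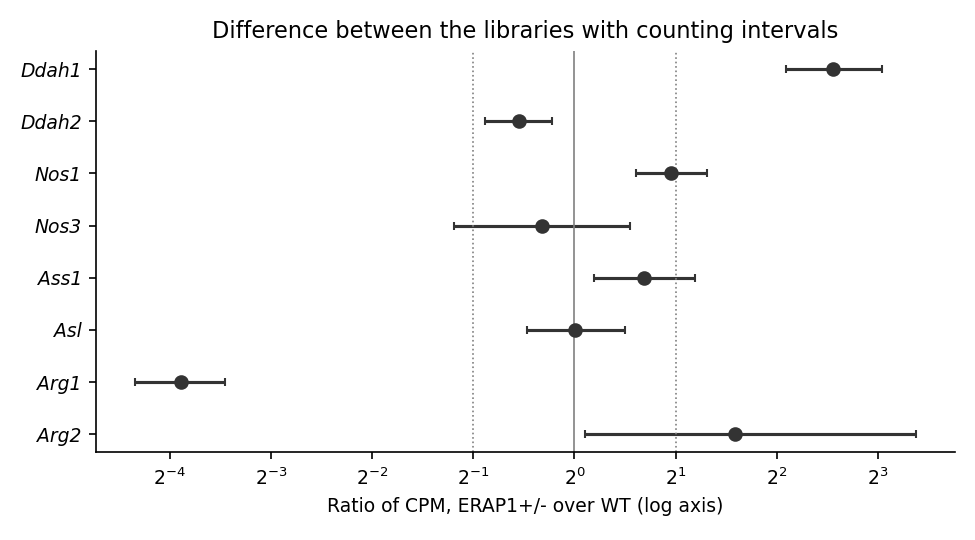
Ratio of the level in the library labelled ERAP1+/- to that in WT, on a log axis, for the 8 genes with reads in WT, with exact 95% counting intervals. The solid line is a ratio of 1 and the dotted lines are 2-fold differences. The intervals of Ddah1 (4.27 to 8.24), a gene chosen for its difference, and Arg1 (0.0495 to 0.0911) lie outside the dotted lines. Those of Nos3 and Asl include 1.

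Genes around Ddah1 on chromosome 3 were compared with it. The annotation gives 10 other protein-coding genes within 500 kb, of which 9 had a row in the counts, 7 at least 10 reads and only 2, Bcl10 and Znhit6, reached the log2 level of 4. Neither of these was called. Bcl10, which encodes an adaptor of NF-kB signalling and lies 28.5 kb beyond the end of Ddah1, had 426 reads in WT and 509 in the library labelled ERAP1+/-, a log2 difference of 0.00. Znhit6, on the other side, had 145 and 198 reads (log2 difference 0.18). The other 5 stayed under that level, where the pseudocount makes log2 differences smaller than the ratios of CPM. Syde2 had 11 and 34 reads, which gives a log2 difference of 0.95 and a ratio of 2.58 (95% interval 1.28 to 5.65). Ccn1, which encodes a matricellular protein, had 27 and 70 reads, with a log2 difference of 0.93 and a ratio of 2.17 (1.37 to 3.51). Lpar3, a receptor for lysophosphatidic acid, had 9 and 2 reads, 5.39-fold lower (1.11 to 51.2), with a log2 difference of -0.83. By their ratios Syde2 and Ccn1 were also higher beyond counting error, so that Ddah1 was not the only gene higher in this region. The share of all genes that differ beyond counting error was not counted, so that this is no result about the region. The intervals of Syde2 and Ddah1 overlap, and whether their ratios differ was not tested.

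**Figure D3:**
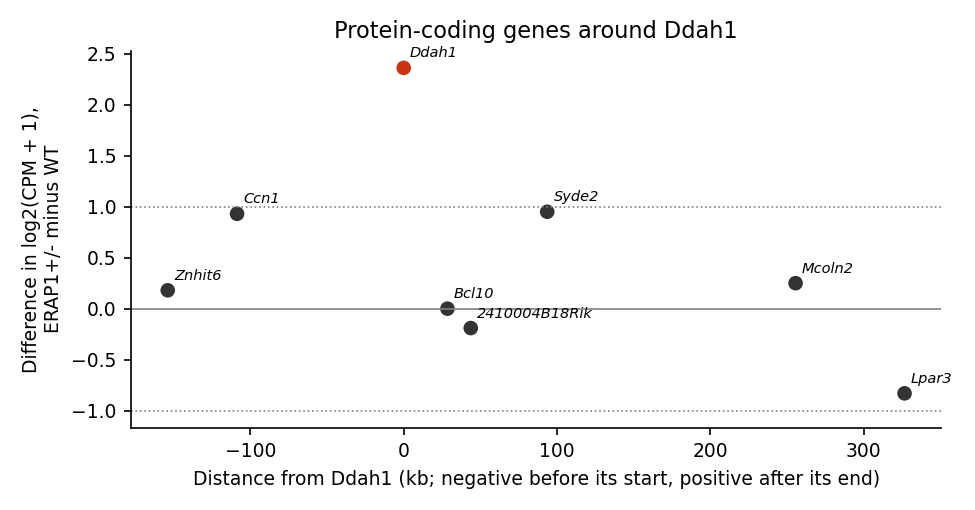
Difference in log2(CPM + 1), ERAP1+/- minus WT, against the distance from Ddah1 in kb, for Ddah1 (red) and the 7 protein-coding genes within 500 kb that had at least 10 reads (black). Dotted lines mark 2-fold differences. Ddah1 stands at 2.36 and the others run from -0.83 to 0.95, of which those with few reads are drawn towards 0 by the pseudocount.

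The genes whose levels in both libraries were nearest to those of Ddah1 were Fabp2, Btnl1, Ffar2, Iglc1 and Slc12a8, by the Euclidean distance of their log2(CPM + 1) over 2 libraries, which is a description of level and of nothing else. Fabp2, the intestinal fatty acid binding protein, was at a distance of 0.30, with 56 reads in WT and 299 in the library labelled ERAP1+/- (ratio 4.46, 95% interval 3.34 to 6.05). Btnl1, a butyrophilin-like protein of intestinal epithelium, had 57 and 268 reads at a distance of 0.38. Ffar2, a receptor for short-chain fatty acids, had 53 and 235 reads at a distance of 0.45. The others were Iglc1, a lambda light chain constant region, with 66 and 334 reads, and the solute carrier Slc12a8, with 49 and 199 reads.

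Ddah1 was also set beside cell type markers. The 12 epithelial markers summed to 85615 reads in WT and 84048 in the library labelled ERAP1+/-, so that Ddah1 had 0.514 and 3.68 reads per 1000 epithelial marker reads, a ratio of 7.15 (95% interval 5.20 to 10.05). In CPM the marker sums were 11020 and 9035, with 9 of the 12 lower, 3 higher and only Krt20 called (lower, ratio 0.433). The 7 goblet cell markers were all higher in the second library, at 8356 and 13550 CPM in sum, and per 1000 of their reads Ddah1 differed 3.62-fold (2.63 to 5.08). Among plasma cell markers, 7 of 8 were higher, with sums of 495 and 2090 CPM and no member at 0. Per 1000 plasma cell marker reads Ddah1 stood at 11.4 and 15.9, a ratio of 1.39 (1.01 to 1.96), and without Igha, the marker with the most reads, the ratio was 2.52 (1.82 to 3.55). The markers of this list differed among themselves, with ratios of CPM from 0.868 for Sdc1 and 1.33 for Xbp1 to 6.22 for Mzb1 and 6.69 for Igha. The value of Ddah1 per marker read therefore depends on which markers are summed. The comparisons with goblet and plasma cell markers were added after the data were seen, and the part of these cells in the Ddah1 difference was not tested.

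Of the nitric oxide synthases, Nos1 had the most reads in both libraries. It encodes the neuronal enzyme, found in inhibitory neurons of the gut wall, and lies on chromosome 5 from 117781032 to 117958840. It had 99 reads in WT and 230 in the library labelled ERAP1+/-, or 12.7 and 24.7 CPM. The second level was higher, by a ratio of 1.94 (95% interval 1.53 to 2.48), and the log2(CPM + 1) difference of 0.90 was short of 2-fold. With scaling by the total count it was 1.02 and passed 2-fold. Nos1 per Nos3 read, which does not depend on scaling, was 3.96 in WT and 9.58 in the other library, a ratio of 2.42 (1.26 to 4.65). Just inside and just outside that threshold were Rims4, with 11.97 and 24.9 CPM, and Ube2c, with 18.5 and 38.1 CPM.

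Markers of enteric neurons moved with Nos1. All 10 were higher in the library labelled ERAP1+/-, by 0.32 to 1.13 on the log2 scale, none was at 0, and of the 4 at the log2 level of 4 only Vip, a transmitter of inhibitory neurons, passed 2-fold. Their sum was 110 CPM in WT and 187 CPM in the other library, a ratio of 1.70 (95% interval 1.56 to 1.85). Per 1000 reads of these markers, Nos1 had 116 and 132 reads, a ratio of 1.14 whose 95% interval includes 1 (0.886 to 1.48). Skeletal muscle is also known to use Nos1, and its markers went the other way, at 1186 and 22.3 CPM. All 10 smooth muscle markers were lower as well, with sums of 11570 and 5921 CPM. What share of the Nos1 difference goes with the number of neurons in the tissue was not tested.

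Nos3, the endothelial synthase (chromosome 5, 24364810 to 24384474), had 25 reads in WT and 24 in the library labelled ERAP1+/-. The levels were 3.22 and 2.58 CPM, and the 95% interval of their ratio (0.802) ran from 0.439 to 1.46, so that a difference was not detectable at this depth. The 10 endothelial markers summed to 178 and 194 CPM with none at 0, and per 1000 of their reads Nos3 stood at 18.1 and 13.3, a ratio of 0.734 (0.399 to 1.35). The last exon of Nos3 overlaps Atg9b on the opposite strand, which had 26 and 4 reads. The strand setting of the counting is not given in the sources used here.

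Nos2, the inducible synthase, lies on chromosome 11 (78920787 to 78960254) and had 0 reads in WT and 6 in the library labelled ERAP1+/-, or 0.645 CPM. For WT, a floor of 3 reads is 0.386 CPM. The exact lower 95% limit of the ratio was 0.984, so that a difference was not detectable at this depth. Markers of neutrophils were 13.5 and 39.2 CPM in sum, with 4 of the 8 (Retnlg, Ngp, Camp and Mpo) at 0 in WT. Most of these reads came from S100a8 (49 and 165) and S100a9 (52 and 171), both called higher. The other markers had at most 18 reads in a library, and Cxcr2 went the other way (3 and 1 reads). The 10 macrophage markers, none at 0, were 241 and 305 CPM. The part of neutrophils and macrophages in the reads of Nos2 was not tested.

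The 2 enzymes that rebuild arginine from citrulline stayed under the log2 level of 4. Ass1, which joins citrulline and aspartate, lies on chromosome 2 (31470207 to 31520672) and had 53 reads in WT and 102 in the library labelled ERAP1+/-. At 6.82 and 10.96 CPM, the second level was higher by a ratio of 1.61 (95% interval 1.14 to 2.28). Asl, which splits argininosuccinate into arginine and fumarate (chromosome 5, 130011258 to 130029247), had 68 and 82 reads, or 8.75 and 8.82 CPM. Its ratio was 1.01, and the interval from 0.721 to 1.41 allows a difference of either sign. Within a library, Ass1 made up 43.8% of the reads of the pair in WT (34.8% to 53.1%) and 55.4% in the other (47.9% to 62.8%), and the ratio between the libraries of Ass1 per Asl, 1.60, has an interval that includes 1 (0.980 to 2.60).

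Arg1 had the lowest difference of the 9 genes. It encodes the cytosolic arginase of the liver urea cycle and of alternatively activated macrophages, is also known from keratinocytes, and lies on chromosome 10 (24915221 to 24927484, minus strand). It had 591 reads in WT and 48 in the library labelled ERAP1+/-, or 76.1 and 5.16 CPM. These levels do not overlap in their counting intervals (70.1 to 82.5 and 3.81 to 6.84 CPM), and Arg1 was 14.7-fold lower (95% interval 10.97 to 20.2), a log2 difference of -3.64. It passed 2-fold under each of the scalings, pseudocounts and filters tried, and 4-fold as well.

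The difference of Arg1 was compared with marker lists. Macrophage markers were not lower with it: 6 of the 10 were higher and their sum had a ratio of 1.26 (95% interval 1.19 to 1.34). All 12 suprabasal epidermis markers were lower, 147-fold in sum (128 to 168), with Ivl, Dsc1 and Dsg1a at 0 in the library labelled ERAP1+/-. The 14 skeletal muscle markers were lower as well, 53.3-fold in sum (46.4 to 61.5), with Atp2a1 at 0 there. Of the 8 markers of stratified basal epithelium, all were lower, with Trp63 at 0 in that library. Their sum was 2.71-fold lower (2.56 to 2.88), or 11.9-fold (10.4 to 13.7) over the 7 genes without Dst, which had 1385 and 1394 reads. Per 1000 reads of these 7 genes, Arg1 had 257 and 207 reads, a ratio of 0.806 whose interval includes 1 (0.571 to 1.12). With Dst it had 160 and 29.5 reads per 1000, a ratio of 0.184 (0.134 to 0.249). Per 1000 suprabasal epidermis marker reads Arg1 had 22.2 and 221 reads, a ratio of 9.95 (7.04 to 13.8), so that it was lower by much less than this list. Per 1000 skeletal muscle marker reads the ratio was 3.62 (2.55 to 5.03), and per 1000 macrophage marker reads it was 0.0537 (0.0390 to 0.0727). Arg1 thus kept no constant ratio to any of these lists as first drawn up. Setting Arg1 against these lists and leaving out Dst were chosen after seeing the data, and the part of skin tissue in the reads of Arg1 was not tested.

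**Figure D4:**
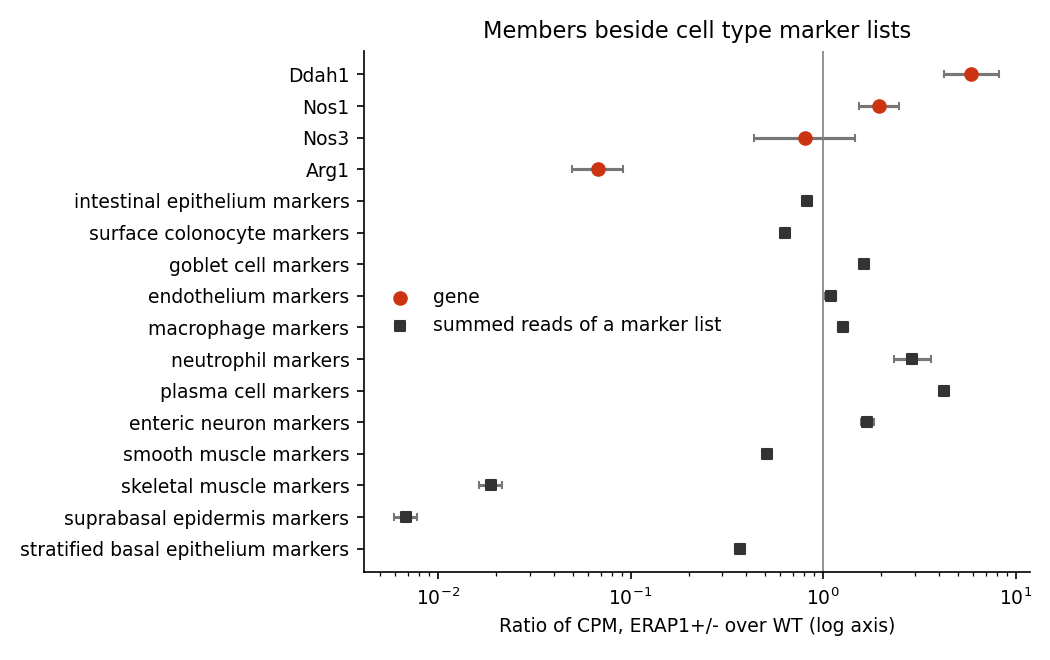
Ratio of the level in the library labelled ERAP1+/- to that in WT, on a log axis, for Ddah1, Nos1, Nos3 and Arg1 (red circles) and for the summed reads of 12 lists of cell type markers (black squares), with exact 95% counting intervals. Arg1 (0.0678) lies between the lists of skeletal muscle (0.0188) and stratified basal epithelium (0.368), and Nos1 (1.94) lies near the enteric neuron list (1.70). Ddah1 (5.87) lies above every list shown, but its interval (4.27 to 8.24) overlaps that of the plasma cell list (4.08 to 4.37).

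Arg2, the mitochondrial arginase (chromosome 12, 79130777 to 79156301), had 5 reads in WT and 18 in the library labelled ERAP1+/-, or 0.644 and 1.94 CPM. The second was higher by a ratio of 3.01, with a wide 95% interval from 1.08 to 10.4 because of the few reads. Its last exon overlaps Vti1b on the opposite strand, a gene with 887 and 877 reads. Arg1 per Arg2 was 118 in WT and 2.67 in the other library, 44.3-fold lower (14.8 to 157). Both arginases thus held reads in both libraries, and Arg1 was the larger in each.

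Other genes of arginine and nitric oxide metabolism were taken from 8 lists with 80 symbols, of which 3 are second names of listed genes and the other 77 were found. At the log2 level of 4 were 49, and of these 2 were more than 2-fold higher in the library labelled ERAP1+/- (Slc7a7 and Srm) and 1 was lower (Azin1). Among all 8013 genes that reached it, 1.39% were called higher and 3.96% lower, so that counts this small are a description and no result about these lists. Over the 70 genes with at least 10 reads the median log2 difference was 0.04, with 36 above 0 and 34 below, near the 0.00 of all genes.

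Protein arginine methyltransferases make the methylated arginines from which dimethylarginine is released. Of 10 genes in that list, none was called. Prmt1, the main enzyme for asymmetric dimethylation, had the most reads, with 400 in WT and 596 in the library labelled ERAP1+/- (51.5 and 64.1 CPM, log2 difference 0.31). Among those with at least 10 reads, differences ran from -0.45 for Prmt9 to 0.60 for Prmt5. In 6 of these 8 the difference was above 0, beside 50.3% of all genes with as many reads. Agxt2, an aminotransferase that also breaks down dimethylarginine, had no read in either library.

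Among 8 genes of arginine transport, Slc7a7 was called higher. It encodes a light chain of the exchanger that passes cationic amino acids out of epithelial cells, and had 86 and 220 reads (11.1 and 23.7 CPM), a ratio of 2.14 (95% interval 1.66 to 2.78) and a log2 difference of 1.03. Its heavy chain partner Slc3a2 had the most reads of the list and was lower within 2-fold, with 894 and 627 reads (log2 difference -0.76). Slc7a1 and Slc7a2, importers of arginine, had log2 differences of 0.22 and -0.88.

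The synthases need tetrahydrobiopterin. Of the 8 genes of its supply, 7 reached the log2 level of 4 and none was called. Gch1, which encodes the first enzyme of its synthesis, had 279 and 214 reads (log2 difference -0.62), and Pcbd1, which takes part in its recycling, 130 and 293 reads (0.87). Qdpr, which reduces the spent cofactor and had the most reads, had 639 and 978 (0.35). Of the 10 genes for proteins that bind or regulate the synthases, 9 reached that level and none was called either. In 7 of the 10, all with at least 10 reads, the difference was below 0, beside 49.7% of all genes with as many reads. Nostrin, a binding partner of the endothelial synthase, had 934 and 703 reads (log2 difference -0.66).

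Downstream of nitric oxide, the genes for the subunits of its receptor, soluble guanylyl cyclase, differed little: Gucy1a1 had 340 and 433 reads (log2 difference 0.09) and Gucy1b1 127 and 166 reads (0.12). Prkg1, the cyclic GMP-dependent kinase of smooth muscle, had 123 and 102 reads (-0.49), and Pde2a, a phosphodiesterase of cyclic nucleotides, 289 and 527 reads (0.59). The kinase substrate Vasp had the most reads of the 10 genes, with 2102 and 2396 (-0.07), and none of them was called.

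Arginase makes ornithine, the start of polyamines and proline. In that list of 18 genes, 12 reached the log2 level of 4. Srm, which encodes spermidine synthase, was called higher, with 53 reads in WT and 168 in the library labelled ERAP1+/-, a ratio of 2.65 (95% interval 1.93 to 3.68) and a log2 difference of 1.29. Azin1, whose product relieves ornithine decarboxylase of its antizyme, was called lower, with 1296 and 690 reads, or 166.8 and 74.2 CPM (log2 difference -1.16). Odc1, ornithine decarboxylase itself, had 62 and 139 reads (0.83) and stayed under the level. Pycr1, which encodes an enzyme of proline synthesis, had 7 and 46 reads, or 0.901 and 4.94 CPM, the highest ratio of the lists among genes with 10 reads or more (5.49, 95% interval 2.46 to 14.4), and is named after its values were seen, since it too was under the level.

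The genes of the start of the urea cycle, of creatine synthesis and of arginyl-tRNA formation held no called gene. Only 3 of these 9 reached the log2 level of 4. Cps1 and Otc, which make citrulline in the intestine, had 33 and 32 reads and 34 and 46 reads. The arginyl-tRNA synthetase Rars had the most reads of that list, with 524 and 507 (log2 difference -0.30). For the breakdown of S-nitrosothiols, none of 4 genes, all at that level, was called. Their differences ran from -0.08 for Akr1a1 to 0.38 for Adh5, with Txn1, a thioredoxin, at 9686 and 12649 reads (0.13).

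**Figure D5:**
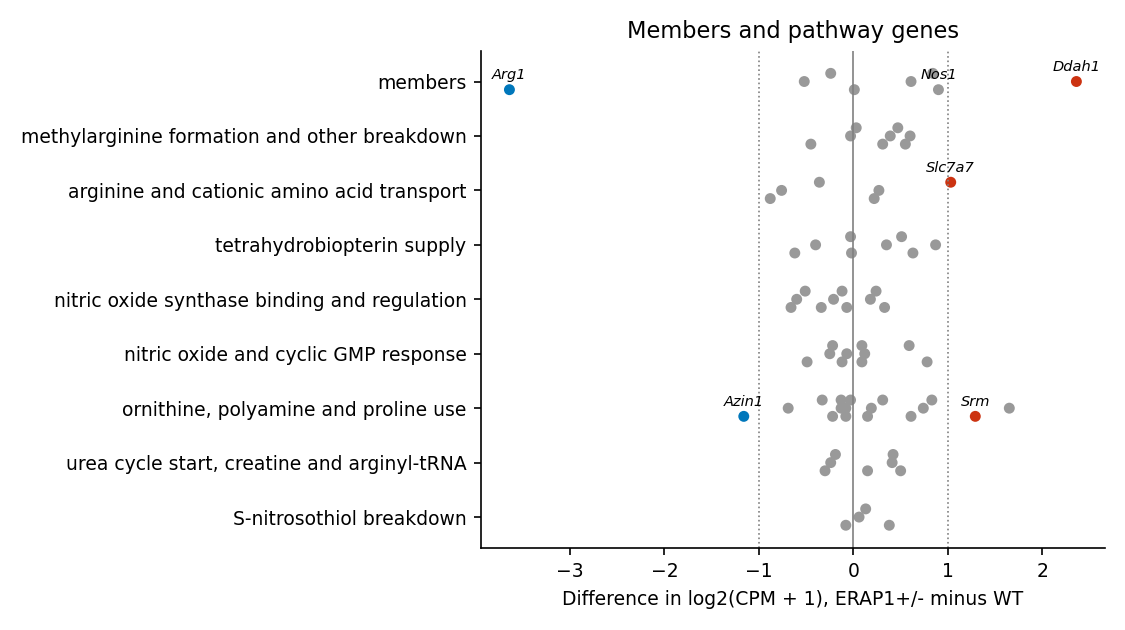
Difference in log2(CPM + 1), ERAP1+/- minus WT, for the 8 members with at least 10 reads and for 70 pathway genes, each point a gene in the row of its list. Red and blue mark genes called higher and lower, grey genes not called, and dotted lines 2-fold differences. Most pathway genes lie between the dotted lines, while Ddah1 (2.36) and Arg1 (-3.64) lie outside them on opposite sides.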

How the data were processed

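RNA pooled from 3 mice per genotype was sequenced from 3' ends (single-end, 75 bases), and the counts the authors deposited are whole and not normalized, with 1 row per gene symbol. Libraries were grouped by the genotype in the labels. The methods name STAR with HTSeq-count and also Bowtie2 with RSEM on GRCm38, and which made these counts is not stated. Depth was 8114826 and 8907515 reads. From the counts, TMM factors (0.958 for WT and 1.04 for the library labelled ERAP1+/-) came from edgeR 4.0.16 (R 4.3.3), and CPM and log2(CPM + 1), with a pseudocount of 1, from them. On this scale differences of low genes come out too small. A gene was called where it differed more than 2-fold on this scale and reached 4 in either library. For ratios, exact conditional 95% intervals were computed (scipy 1.17.1), which are too narrow for differences between mice. Quasi-likelihood tests could not be fitted without replicates. The steps were tested on simulated data.

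The members and lists were chosen with earlier results of these data known. Named genes were the 9 members, called pathway genes and the gene with the most reads of each list (for 1 list it is not reported here), the 5 genes nearest to Ddah1, its neighbours within 500 kb, and markers set beside a member. Positions are from GENCODE M21 and promoters from RefSeq, both on GRCm38. Alternatives were DESeq2 1.42.0 size factors, the total count, library sizes without mitochondrial and ribosomal RNA or without skin and muscle lists, a pseudocount of 0.1, other filters, a 4-fold threshold and reduced marker lists.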

Additional observations from a re-analysis of the deposited data

How the results depend on the processing

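No paired analysis was possible because there was only 1 library for each genotype. Of 96 values recomputed under alternatives, 86 stayed within counting error or within 1.5 times the count given, 10 moved and 0 reversed. The number of members higher became 2 with scaling by the total count, which added Nos1. With a pseudocount of 0.1, Nos2 was at 2.90, since it had no read in WT. A 4-fold threshold left 0 of the pathway genes higher and 0 lower, and over all genes 16 higher and 144 lower. With at least 10 reads in 1 or both libraries in place of the log2 level, 482 genes were higher and 908 lower, and with no filter 482 and 952. Ddah1 ran from 2.36 to 2.53 and Arg1 from -3.86 to -3.53 over the scalings and pseudocounts, and both were called under every setting. Among the genes called, 74.1% were lower, and 59.9% with the total count. Without the marker with the most reads, the ratio of Ddah1 per epithelial marker read was 7.76, of Nos1 per neuron marker read 1.09 and of Nos3 per endothelial marker read 0.753. Depth limits Nos2, Nos3 and Arg2, which had at most 25 reads in a library.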
